A study of Mus musculus with 59 samples.

Results

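The genetic interaction of heterozygous Slc25a1 and Mrpl40 was measured in mouse cerebral cortex, from all 30 cortex libraries of the 59 libraries in the study. Slc25a1 encodes the citrate carrier of the inner mitochondrial membrane, which exports citrate for cytosolic acetyl-CoA and lipid synthesis. Mrpl40 encodes a large-subunit component of mitochondrial ribosomes, which translate the few proteins encoded in mitochondrial DNA. Both genes lie in the mouse region that matches human 22q11.2. The labels give 4 genotypes: wild type (Mrpl40 +/+,Slc25a1 +/+) with 9 cortex libraries, and Slc25a1 -/+, Mrpl40 -/+ and the double heterozygote (Mrpl40 -/+,Slc25a1 -/+) with 7 each. All animals were male, each cortex library came from a different animal, and the hippocampus of 29 of these animals was also sequenced. For the kind of mutant allele, the strain and the age of the animals, nothing is given in the sources used here.

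The interaction was computed for each gene on the log2 scale as double heterozygote minus Slc25a1 -/+ minus Mrpl40 -/+ plus wild type, with genotypes as labelled. It is 0 where the effects of both alleles add up, negative where the double heterozygote lies below the sum of the separate effects, and positive where it lies above. Levels are given as CPM, the counts of a gene scaled to a common library size. Of 20394 genes that passed the filter on low counts, 0 were called at an adjusted p under 0.05 in edgeR's quasi-likelihood test (percentage called 0). The unadjusted p was under 0.05 for 1092 genes (5.35%), of which 550 (2.7%) had a positive and 542 (2.66%) a negative interaction. DESeq2, run as an alternative, called 1 gene, Malat1. The median interaction over all tested genes was 0.0014, and 10311 genes (50.6%) lay above 0. The rest of the account therefore describes the genes closest to the threshold and the gene groups they belong to.

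The targeted genes did not match every label. Slc25a1 was at 12.0, 23.7 and 26.1 CPM (lowest, median and highest library) in wild type, at 10.9, 12.5 and 24.0 CPM in Slc25a1 -/+, at 21.6, 22.1 and 24.5 CPM in Mrpl40 -/+ and at 10.6, 11.4 and 21.6 CPM in the double heterozygote. The libraries fell into 2 separate levels, with 12 between 10.6 and 13.1 CPM and the others between 20.8 and 26.1 CPM. In 6 animals the level went against the label: 2 labelled wild type were low, and 2 labelled Slc25a1 -/+ and 2 labelled double heterozygous were high. The same animals stood apart in hippocampus. Groups below are as labelled, and results are also given without these 6 animals. Mrpl40 had medians of 17.0, 17.6, 17.4 and 17.4 CPM in wild type, Slc25a1 -/+, Mrpl40 -/+ and double heterozygote, with a log2 difference of -0.04 between Mrpl40 -/+ and wild type. Its counts therefore do not separate the Mrpl40 genotypes, and the labels could not be checked by them. The interaction was -0.15 ± 0.29 (log2 ± SE, adjusted p = 0.984) for Slc25a1 and 0.04 ± 0.09 (adjusted p = 0.987) for Mrpl40.

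Library totals ranged from 21443017 to 32120906 counts. All 37 rows of genes encoded in mitochondrial DNA held 0 counts, so the mRNAs that mitochondrial ribosomes translate could not be measured from these rows. Counts were present for 7 nuclear copies of mitochondrial genes. They summed to medians of 6997, 7290, 8702 and 8006 CPM in wild type, Slc25a1 -/+, Mrpl40 -/+ and double heterozygote. Whether the reads came from these copies or from mitochondrial RNA was not tested. Their median log2 differences from wild type were -0.0068 in Slc25a1 -/+, 0.29 in Mrpl40 -/+ and 0.22 in the double heterozygote. Among them, Gm28439 was called between Mrpl40 -/+ and wild type (0.32, adjusted p = 2.3e-05 in edgeR's test). All 7 copies had negative interactions (median -0.08). Of these, 2 had an unadjusted p under 0.05 in edgeR's test, against 2.66% of all tested genes, and 0 passed after adjustment. Markers of cortical neurons were present in every library. The 10 measured upper-layer markers summed to at least 1730 CPM, and the 12 neuron markers to medians of 10711, 10754, 11320 and 11189 CPM in the order of genotypes above. Median sums over the hippocampal marker list were 260.2, 283.3, 248.8 and 259.1 CPM. Nothing in the labels says whether animals shared litters or preparation days, and effects of these on the groups were not tested. Less RNA per cell and fewer cells of a type cannot be told apart in these bulk tissue libraries.

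Malat1 (ENSMUSG00000092341) had the smallest p of all tested genes. It is a long noncoding RNA that stays in the nucleus, where it collects at nuclear speckles, and is among the most abundant noncoding transcripts of neurons. The gene lies on chromosome 19 (GRCm38 chr19:5795690-5802672, minus strand) and is annotated as a lincRNA. Its mature end is not a poly(A) tail. RNase P cuts it before a small tRNA-like RNA, mascRNA, and the end is protected by a triple helix in which U-rich stretches pair with a genomically encoded A-rich tract. This end is shown because the libraries were made from RNA bound to oligo(dT). Capture of such a transcript may differ from that of polyadenylated mRNA, and was not measured here. The segment covers positions 6599 to 6749 of the 6983-base transcript in GENCODE vM21, with the A-rich tract in capitals.
Malat1 3′ end: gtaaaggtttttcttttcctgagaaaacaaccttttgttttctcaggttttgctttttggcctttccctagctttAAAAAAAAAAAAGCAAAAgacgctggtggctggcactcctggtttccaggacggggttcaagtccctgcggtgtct
The tract holds a run of 12 A, the only run of 10 or more A in the transcript. Whether capture through this tract differed between libraries was not tested.

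In wild-type cortex, Malat1 was at 1939, 2092 and 2352 CPM (lowest, median and highest library). In Slc25a1 -/+ it was at 1955, 2209 and 2580 CPM, and in Mrpl40 -/+ at 2218, 2250 and 2308 CPM. In the double heterozygote it was at 1734, 1869 and 2040 CPM. All 7 double heterozygous libraries lay below every Mrpl40 -/+ library, and 6 of 7 lay below every wild-type and every Slc25a1 -/+ library. These include the 2 double heterozygous animals with a high Slc25a1 level, at 1743 and 1893 CPM of Malat1. Of the other animals against the label, the 2 labelled wild type were at 2352 and 2263 CPM. The 2 labelled Slc25a1 -/+ were at 2062 and 2209 CPM. Against wild type, Malat1 differed by 0.07 in Slc25a1 -/+ (log2, adjusted p = 1), by 0.10 in Mrpl40 -/+ (adjusted p = 0.688) and by -0.18 in the double heterozygote (adjusted p = 0.0785), none of which passed the test.

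**Figure D1:**
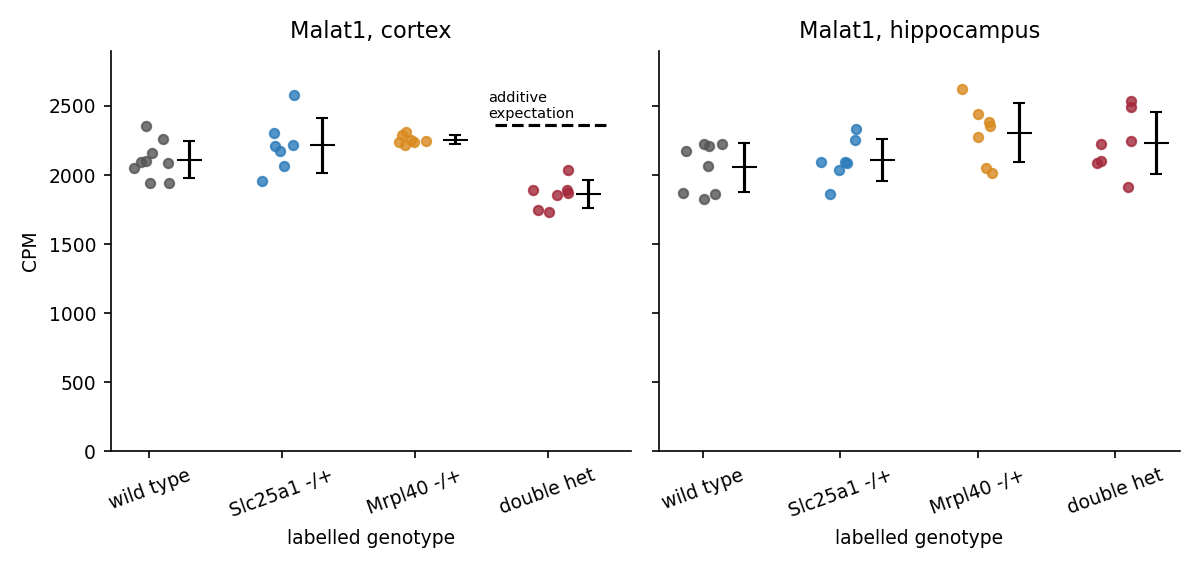
Malat1 level (CPM, vertical axis from 0) in each library by labelled genotype, in cortex (left) and hippocampus (right). Points are libraries, black marks and bars the mean ± SD, and the dashed line the cortex level of the double heterozygote under additivity, 2365 CPM. The cortex libraries of the double heterozygote lie between 1734 and 2040 CPM, below that line.

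Additive effects would place the double heterozygote at 2365 CPM, and its geometric mean was 1859 CPM, a difference of -21.4%. The interaction was -0.35 ± 0.06 on the log2 scale (SE; 95% interval -0.48 to -0.22), with an unadjusted p of 2.76e-06 and an adjusted p of 0.0562 in edgeR's quasi-likelihood test. It thus missed the threshold. Without the 6 animals whose Slc25a1 level went against the label, the interaction was -0.39 and passed (adjusted p = 0.0322). It passed in 7 of 9 alternative analyses, with values from -0.39 to -0.33 and adjusted p from 0.0024 to 1. The highest p came from a test against a fold of 1.2. Leaving out single libraries gave -0.38 to -0.31 (adjusted p from 0.0061 to 0.158). It passed without wild-type replicate 6, wild-type replicate 7, Slc25a1 -/+ replicate 1, Slc25a1 -/+ replicate 3 or double heterozygous replicate 7, and in none of the other 25 cases.

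**Figure D2:**
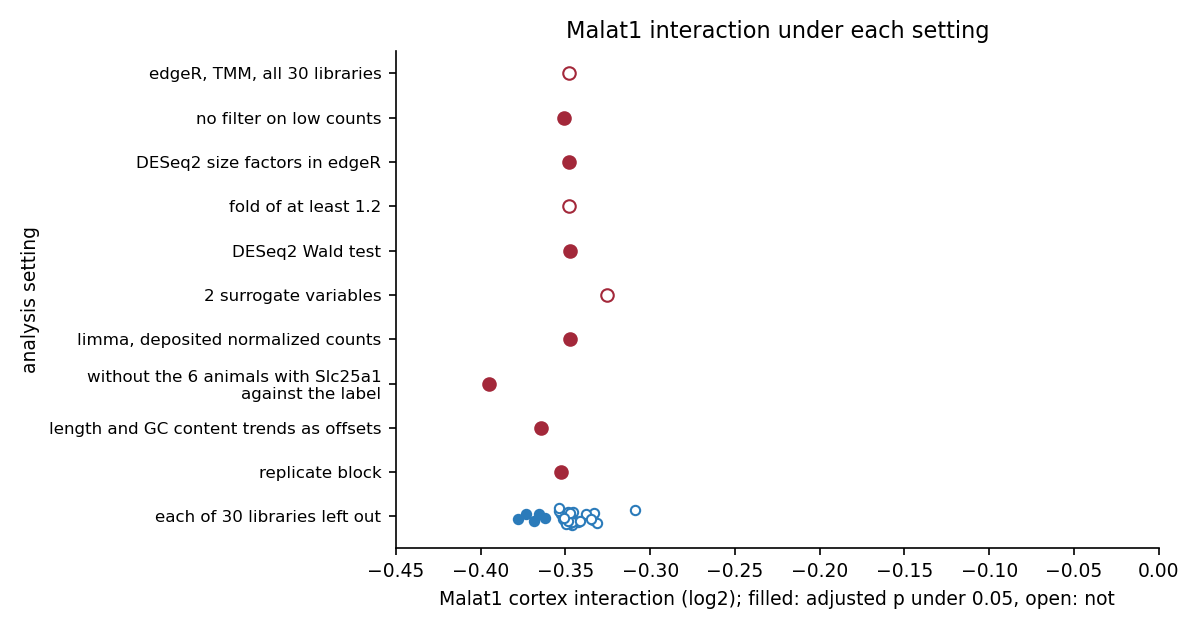
Malat1 cortex interaction (log2, horizontal axis) under each analysis setting (vertical axis). Filled points have an adjusted p under 0.05 and open points do not; the bottom row holds the 30 analyses that each leave out 1 library. All points lie between -0.39 and -0.31.

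Direct comparisons between genotypes showed a lower Malat1 level in the double heterozygote than in either single heterozygote. Against Mrpl40 -/+ the log2 difference was -0.28 ± 0.05 (adjusted p = 0.0105), and Malat1 was the only gene called in that comparison (0.0049% of tested genes). Against Slc25a1 -/+ it was -0.25 ± 0.05 (adjusted p = 0.0333), 1 of 12 genes called (0.0588%). These comparisons share libraries with the interaction and are not separate evidence for it. Without the 6 animals, the difference from Mrpl40 -/+ remained past the test (-0.26, adjusted p = 0.0302) and that from Slc25a1 -/+ did not (-0.26, adjusted p = 0.113). The call against Mrpl40 -/+ was lost without double heterozygous replicate 4 (adjusted p = 0.0647) or replicate 5 (adjusted p = 0.0608). The call against Slc25a1 -/+ was lost without Slc25a1 -/+ replicate 2, 5, 6 or 7 or double heterozygous replicate 1, 4 or 5, with adjusted p from 0.0508 to 0.113. The count of 12 genes ranged from 0 to 149, the latter without Slc25a1 -/+ replicate 1, and moved more than 1.5 times without any 1 Slc25a1 -/+ library or without double heterozygous replicate 1, 4, 5, 6 or 7. The double heterozygote differed from wild type in 14 genes (0.0686%), Mrpl40 -/+ in 6 (0.0294%) and Slc25a1 -/+ in 0 (percentage called 0 in edgeR's test; unadjusted p under 0.05 for 646 genes), with Malat1 in none of these.

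In hippocampus, Malat1 had medians of 2122, 2094, 2354 and 2227 CPM (lowest and highest libraries 1829 and 2228, 1865 and 2333, 2018 and 2622, and 1915 and 2538 CPM) in wild type, Slc25a1 -/+, Mrpl40 -/+ and double heterozygote, and the groups overlapped. Its interaction there was -0.09 ± 0.09 (unadjusted p = 0.373 in edgeR's quasi-likelihood test). The hippocampus interaction minus the cortex interaction, fitted over the 29 animals with both tissues, was 0.24 ± 0.11 (unadjusted p = 0.0328, adjusted p = 1), so a difference between tissues did not pass the test. Neither edgeR nor DESeq2 called a gene for the hippocampus interaction (percentage called 0; unadjusted p under 0.05 for 3.39%) and edgeR called 0 for the tissue difference (percentage called 0; unadjusted p under 0.05 for 4.01%).

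Other noncoding RNAs did not all follow Malat1. The list of nuclear-retained and neuronal noncoding RNAs had 21 measured members, 12 below 0, with a median interaction of -0.03. Apart from Malat1 none came near the threshold. At an unadjusted p under 0.05 in edgeR's test, 4 members including Malat1 were negative and 0 positive, against 2.66% and 2.7% of all tested genes. Kcnq1ot1, the antisense RNA that silences an imprinted domain, had an interaction of -0.22 ± 0.08 (adjusted p = 0.805), with means of 166, 179, 169 and 157 CPM in wild type, Slc25a1 -/+, Mrpl40 -/+ and double heterozygote. Meg3, from the imprinted Dlk1-Dio3 domain, had -0.14 ± 0.07 (adjusted p = 0.927), and Mirg, a microRNA host RNA of that domain, had -0.20 ± 0.10 (adjusted p = 0.927). Neat1, the scaffold of nuclear paraspeckles and the neighbour of Malat1, had -0.03 ± 0.15 (adjusted p = 0.992). Of 15 measured neighbours of Malat1 on chromosome 19, 11 lay below 0, with a median of -0.03. At the same unadjusted threshold, 4 of the 15 were negative and 0 positive. The largest negative value among the neighbours was -0.28 ± 0.10 (adjusted p = 0.81) for Pola2, a subunit of DNA polymerase alpha. Splicing factors and speckle proteins were centred at 0.0020, with 16 of 30 above 0.

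The 30 genes described are Malat1, both targeted genes and the 27 genes of smallest p whose mean log2 CPM was 0 or higher. Besides the targeted genes these were chosen for their interaction, so their values are a description. In the 30, 22 interactions were negative and 8 positive. By annotation, 12 belong to the class TEC, provisional noncoding loci awaiting experimental testing, 9 are protein coding, and 3 have no symbol in the files. Adjusted p ranged from 0.0562 for Malat1 to 0.987 for Mrpl40.

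**Figure D3:**
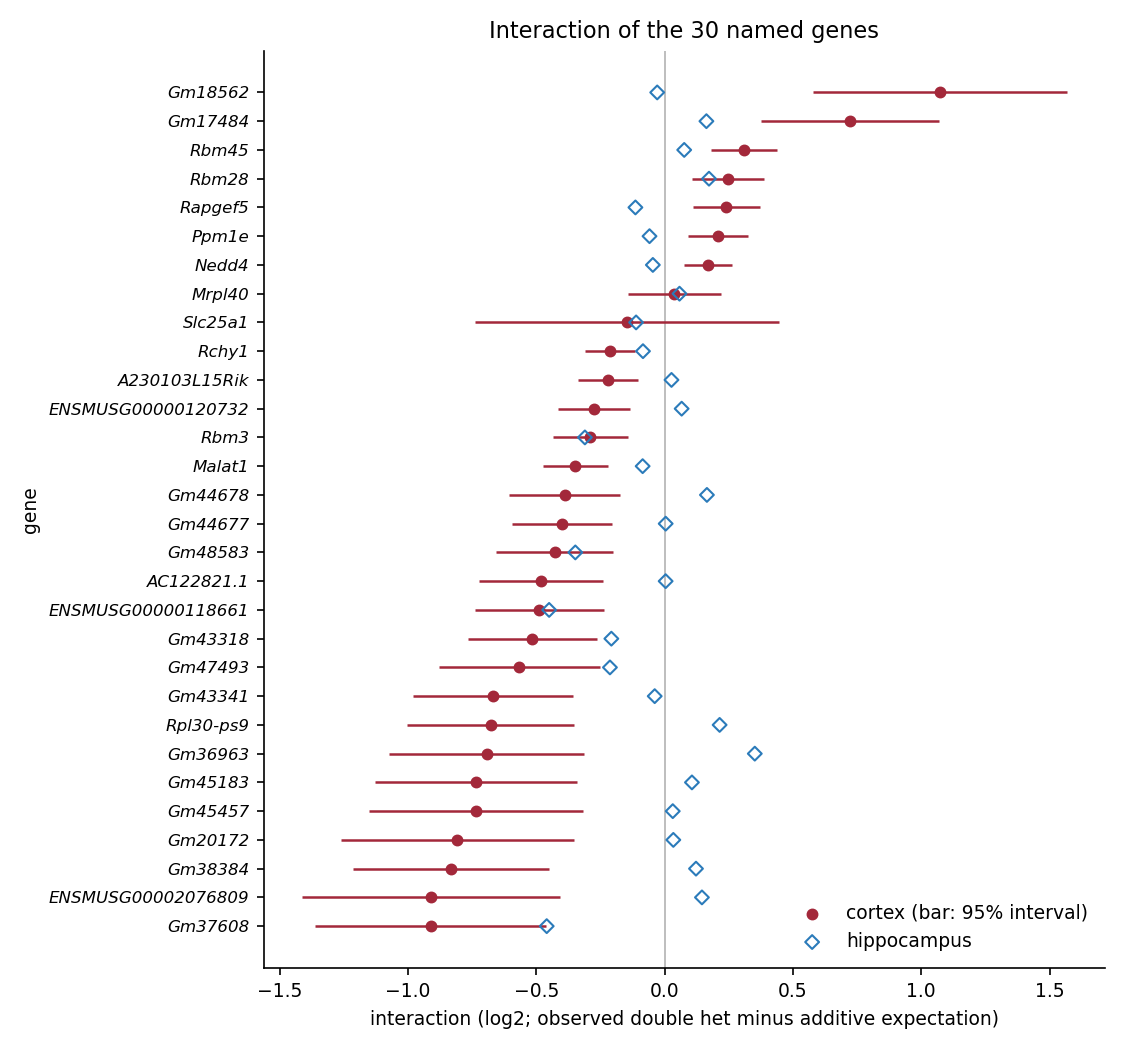
Interaction (log2, horizontal axis) of the 30 described genes (vertical axis), in cortex with its 95% interval (filled circles and bars) and in hippocampus (open diamonds). Cortex values range from -0.91 for Gm37608 to 1.07 for Gm18562, and many hippocampus values lie nearer to 0. Besides the targeted genes these were chosen for their cortex interaction, so nothing is read from this difference between tissues.

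Of the protein-coding genes besides the targeted ones, Rbm45 had the smallest p. Rbm45, an RNA-binding protein that gathers in neuronal inclusions in motor neuron disease, was at 23.5, 24.7 and 28.9 CPM in wild type (lowest, median and highest library). It was at 21.8, 23.1 and 25.2 CPM in Slc25a1 -/+, 21.8, 23.3 and 25.0 CPM in Mrpl40 -/+ and 23.8, 26.7 and 27.7 CPM in the double heterozygote. In 6 of 7 double heterozygous libraries it lay above every library of either single heterozygote, while it overlapped wild type. Its interaction was 0.31 ± 0.06 (adjusted p = 0.224), and 0.08 ± 0.07 in hippocampus. Rbm28, a nucleolar RNA-binding protein, had 0.25 ± 0.07 (adjusted p = 0.595), and 0.17 ± 0.08 in hippocampus. Without the 6 animals, Rbm45 was at 0.30 (adjusted p = 0.504) and Rbm28 at 0.21 (adjusted p = 0.993).

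Rbm3, an RNA-binding protein induced by cooling, was at 45.0, 50.5 and 55.3 CPM in wild type (lowest, median and highest). It was at 49.6, 53.8 and 60.3 CPM in Slc25a1 -/+, 44.6, 53.7 and 60.7 CPM in Mrpl40 -/+ and 44.3, 46.9 and 51.4 CPM in the double heterozygote. Of the double heterozygous libraries, 1 lay below every wild-type and every Mrpl40 -/+ library and the others overlapped them, and 6 of 7 lay below every Slc25a1 -/+ library. The interaction was -0.29 ± 0.07 (adjusted p = 0.421), and Rbm3 had -0.31 ± 0.11 in hippocampus (unadjusted p = 0.0064 and adjusted p = 0.999 in edgeR's test). Both tissues came from the same animals, so they are not independent. Cirbp, another cold-induced RNA-binding protein, chosen after its values were seen, had -0.18 ± 0.11 in cortex (adjusted p = 0.931) and -0.09 ± 0.10 in hippocampus.

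Rchy1, a ubiquitin ligase that acts on p53, had medians of 30.0, 31.8, 33.1 and 30.3 CPM in wild type, Slc25a1 -/+, Mrpl40 -/+ and double heterozygote. Its interaction was -0.21 ± 0.05 (adjusted p = 0.354), with 6 of 7 double heterozygous libraries below every Mrpl40 -/+ library and none below every wild-type library. Both single heterozygotes lay above wild type (log2 differences of 0.10 and 0.16) and the double heterozygote lay close to it (0.05). Nedd4, a HECT ubiquitin ligase, had medians of 389, 381, 393 and 425 CPM in the same order, with an interaction of 0.17 ± 0.05 (adjusted p = 0.595). Ppm1e, a phosphatase that acts on CaM kinases, had medians of 198, 193, 200 and 227 CPM, and 5 of 7 double heterozygous libraries lay above every wild-type library. Its interaction was 0.21 ± 0.06 (adjusted p = 0.595), and it was among the 12 genes called between double heterozygote and Slc25a1 -/+ (0.21, adjusted p = 0.0375). Rapgef5, a guanine nucleotide exchange factor for Rap GTPases, had medians of 137, 130, 130 and 145 CPM and an interaction of 0.24 ± 0.07 (adjusted p = 0.595).

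Of the 30 described genes, 9 were noncoding loci inside an intron of another gene on the same strand. Gm43341 and Gm43318 lie in introns of Kcnip4, a potassium channel interacting protein, on the same strand. Gm43318 (GRCm38 chr5:48948021-48949969) was at 8.13, 8.94 and 11.4 CPM in wild type (lowest, median and highest), 8.93, 9.71 and 12.9 CPM in Slc25a1 -/+, 7.72, 9.48 and 10.6 CPM in Mrpl40 -/+ and 6.62, 6.96 and 8.53 CPM in the double heterozygote. All 7 double heterozygous libraries lay below every Slc25a1 -/+ library and 6 of 7 below every wild-type library. Its interaction was -0.52 ± 0.12 (adjusted p = 0.354), and the double heterozygote was lower than Slc25a1 -/+ by a log2 difference of -0.52 (adjusted p = 0.0333). Gm43341 (chr5:48978278-48979585) had -0.67 ± 0.15 (adjusted p = 0.354) and was also called against Slc25a1 -/+ (-0.60, adjusted p = 0.0375). The host Kcnip4 had an interaction of 0.02 ± 0.09, with means between 59.4 and 61.8 CPM in all genotypes.

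Gm44677, Gm44678 and Gm45183 lie in introns of Dlg2, which encodes a postsynaptic scaffold protein, on chromosome 7 and on the same strand. Gm44677 (GRCm38 chr7:91627272-91631010) had medians of 14.8, 15.9, 16.0 and 13.1 CPM in wild type, Slc25a1 -/+, Mrpl40 -/+ and double heterozygote. All 7 double heterozygous libraries lay below every library of both single heterozygotes, and 1 lay below every wild-type library. Its interaction was -0.40 ± 0.10 (adjusted p = 0.354), and the difference from Slc25a1 -/+ passed the test (-0.34, adjusted p = 0.0423). Gm44678 had -0.39 ± 0.11 and Gm45183 -0.74 ± 0.19 (adjusted p = 0.595 and 0.548), and their groups overlapped. Dlg2 itself had 0.10 ± 0.05 (adjusted p = 0.931). Gm47493 in Ryr2, Gm45457 in Sorbs2, Gm20172 in Adgrb3 and the pseudogene Gm48583 in Dapk1 had interactions from -0.81 to -0.43, while these hosts were between 0.0036 and 0.053. Among the 30 genes, 6 were called between double heterozygote and Slc25a1 -/+ (Malat1, Gm38384, Gm43341, Gm44677, Gm43318 and Ppm1e), against 0.0588% of all tested genes. The 30 were chosen by an interaction that contains this difference, so nothing is read from their share, and that comparison had 0 calls in edgeR's test without the 6 animals.

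Gm38384, on the strand opposite to Agrp and inside its intron by the annotation, was at 1.59, 2.12 and 3.05 CPM in wild type, 1.90, 2.37 and 3.08 CPM in Slc25a1 -/+, 2.01, 2.49 and 2.73 CPM in Mrpl40 -/+ and 1.08, 1.57 and 1.99 CPM in the double heterozygote. All 7 double heterozygous libraries were below every Mrpl40 -/+ library. Its interaction was -0.83 ± 0.19 (adjusted p = 0.354), and 0.12 ± 0.19 in hippocampus. The sources used here do not give the strand setting of the counting, so reads from overlapping genes on opposite strands may not be separated. Positive interactions among weakly expressed loci were those of the pseudogene Gm18562 (1.07 ± 0.24, medians of 1.03, 0.81, 0.89 and 1.40 CPM) and the lincRNA Gm17484 (0.72 ± 0.17), both with an adjusted p of 0.354. Gm17484 overlaps exons of Ddhd2 and Bag4 on the opposite strand. The pseudogene Rpl30-ps9, a copy of a ribosomal protein gene whose reads may be shared with other copies, had -0.68 ± 0.16 (adjusted p = 0.354).

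The TEC locus A230103L15Rik was more strongly expressed, with medians of 120, 126, 123 and 111 CPM in wild type, Slc25a1 -/+, Mrpl40 -/+ and double heterozygote. All 7 double heterozygous libraries lay below every Mrpl40 -/+ library and 1 lay below every wild-type library. Its interaction was -0.22 ± 0.06 (adjusted p = 0.548) in cortex and 0.03 ± 0.07 in hippocampus. The other 6 described genes, which are Gm37608, Gm36963, the antisense AC122821.1 and the 3 genes without a symbol, had negative interactions from -0.91 to -0.27, with adjusted p from 0.395 to 0.595.

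The position of these loci led to a description of tested noncoding genes inside an intron of a protein-coding gene on the same strand. Genes overlapping a protein-coding exon on either strand were left out. The group was chosen after the values were seen and is given without a test. Of its 929 genes, 671 (72.2%) had a negative interaction, against 49.4% of all tested genes. The median was -0.18, with quartiles of -0.38 and 0.02, against 0.0045 for protein-coding genes and -0.0029 for 3967 noncoding genes elsewhere. An unadjusted p under 0.05 with a lower value was found for 115 genes (12.4%, against 2.66% of all tested genes) and with a higher value for 7. None passed edgeR's test at an adjusted p under 0.05, and 9 of the 929 are among the 30 described genes. By annotation class, TEC loci had a median of -0.16 (671 of 918 below 0) and sense intronic RNAs -0.13 (64 of 103).

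**Figure D4:**
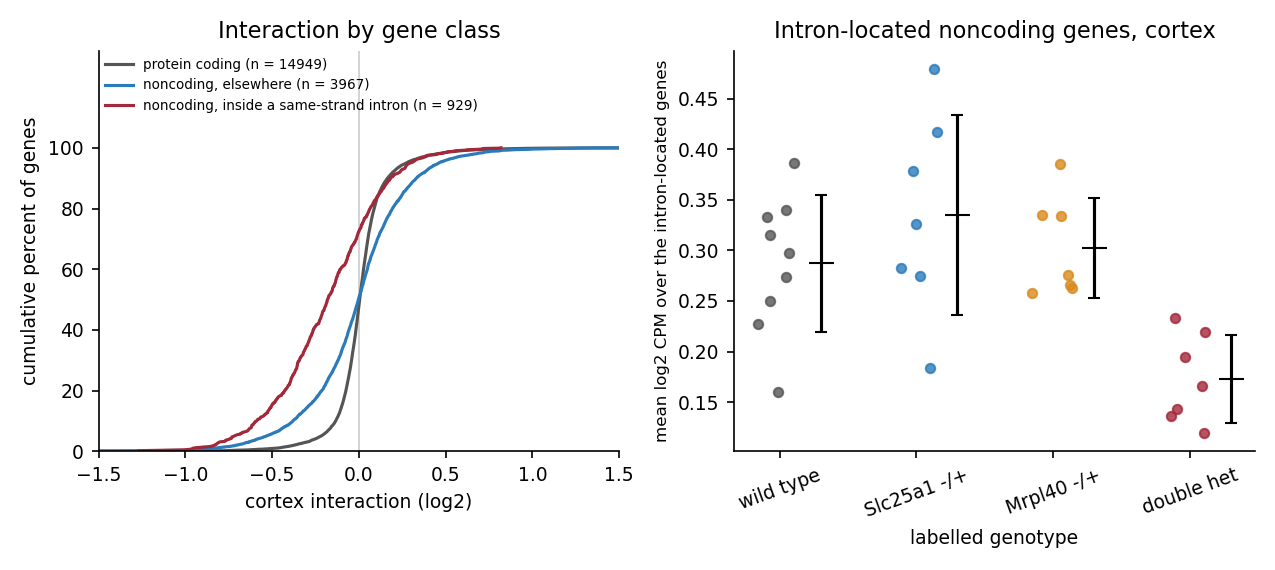
Left, cumulative percentage of genes (vertical axis) against cortex interaction (log2, horizontal axis) for 3 gene classes; the curve of intron-located noncoding genes lies to the left, with a median of -0.18. Right, mean log2 CPM over the 929 intron-located noncoding genes in each cortex library by labelled genotype, with mean ± SD; the double heterozygous libraries lie between 0.12 and 0.23.

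The mean log2 CPM over these 929 genes was 0.16, 0.30 and 0.39 in wild-type libraries (lowest, median and highest), 0.18, 0.33 and 0.48 in Slc25a1 -/+, 0.26, 0.28 and 0.39 in Mrpl40 -/+ and 0.12, 0.17 and 0.23 in the double heterozygote. The double heterozygous libraries lay below every Mrpl40 -/+ library and overlapped wild type and Slc25a1 -/+. Median log2 differences from wild type were 0.05 in Slc25a1 -/+, 0.02 in Mrpl40 -/+ and -0.12 in the double heterozygote. The 641 measured host genes had a median interaction of 0.0071, with 300 below and 341 above 0, and in 668 of 887 pairs of gene and host (75.3%) the intron-located gene lay below its host. The intron-located group was chosen after its negative values were seen, so nothing is read from this share. In hippocampus the median of the intron-located genes was 0.02, with 373 of 802 genes below 0. The cortex median was -0.23 without the 6 animals, and -0.14 with trends over gene length and GC content removed. RNA quality values per library were not used here, and the part of intronic or nuclear RNA content in the Malat1 interaction was not tested.

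A negative interaction that did not pass the test was also found for another abundant RNA. The most abundant row without a symbol (ENSMUSG00000119584) was at 4701, 6865 and 9652 CPM in wild type (lowest, median and highest), 6447, 7925 and 16447 CPM in Slc25a1 -/+, 6338, 8118 and 11128 CPM in Mrpl40 -/+ and 4824, 5419 and 8504 CPM in the double heterozygote. Its interaction was -0.95 ± 0.26 (adjusted p = 0.643) in cortex and 0.02 ± 0.31 in hippocampus. The groups overlapped, and its part in the Malat1 interaction was not tested. This row had no gene class in the annotation used here, so the kind of RNA it counts is not given.

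Gene lists were chosen with earlier results of these data known, and are given as counts and medians. No member of any list passed the interaction test. Complex I takes electrons from NADH into the respiratory chain. Of its 36 measured nuclear-encoded subunits, 27 had positive interactions, against 50.6% of all tested genes. The median was 0.06 in cortex and 0.05 in hippocampus. Median log2 differences from wild type in cortex were -0.04 in Slc25a1 -/+, -0.03 in Mrpl40 -/+ and -0.02 in the double heterozygote. The subunit of smallest p, Ndufa7, had 0.17 ± 0.06 (adjusted p = 0.82). Of the small subunit proteins of the mitochondrial ribosome 25 of 29 lay above 0 (median 0.05), and of the large subunit proteins 35 of 48 (median 0.04). In the same order of genotypes, the small subunit had median log2 differences from wild type of -0.05, -0.04 and -0.02. Those of the large subunit were -0.03, -0.02 and -0.01. Mrpl57 had 0.26 ± 0.08 (adjusted p = 0.643), with means of 16.1, 14.6, 14.5 and 15.8 CPM in wild type, Slc25a1 -/+, Mrpl40 -/+ and double heterozygote. Mrps14 had 0.21 ± 0.08 (adjusted p = 0.82). Complexes II to V had a median of 0.02 (27 of 39 above 0), and the citrate cycle list -0.0017 (14 of 29). SLC25 carriers had a median of -0.01 (15 of 35 above 0) and cytosolic ribosomal proteins -0.0036 (38 of 79). In cholesterol synthesis, 17 of 23 genes lay below 0, with a median of -0.06, and in the stress response list around Atf4 18 of 24 lay above 0, with a median of 0.03.

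**Figure D5:**
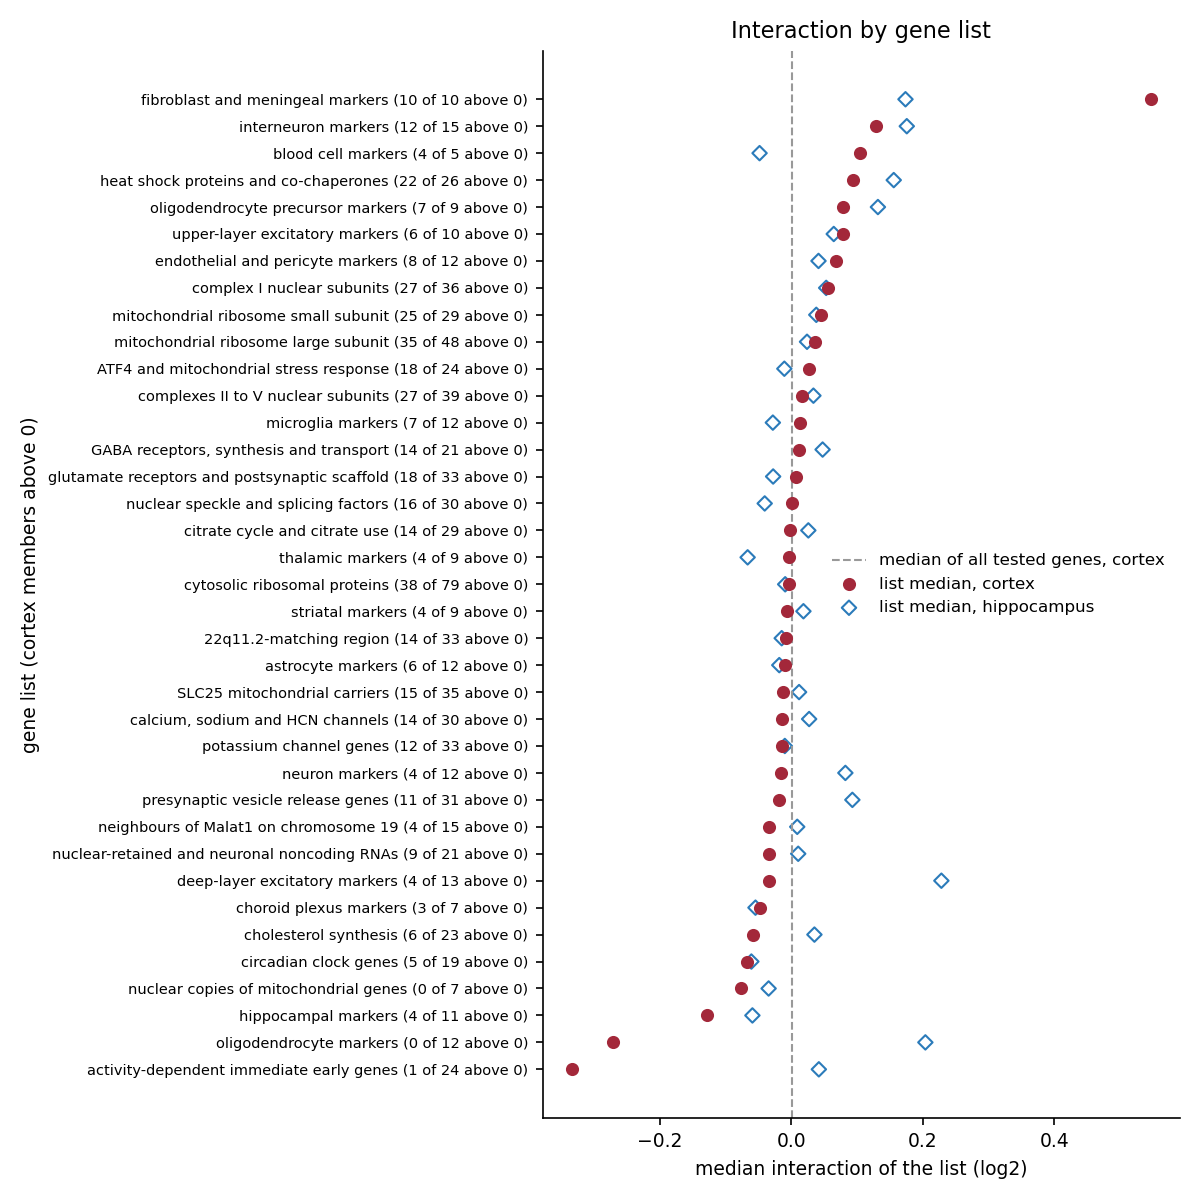
Median interaction (log2, horizontal axis) of each gene list (vertical axis, with the number of cortex members above 0) in cortex (filled circles) and hippocampus (open diamonds). The dashed line is the median of all tested genes in cortex, 0.0014; list medians in cortex range from -0.33 for immediate early genes to 0.55 for fibroblast and meningeal markers.

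Heat shock proteins and co-chaperones, which fold proteins in the cytosol and endoplasmic reticulum, had a median of 0.09 in cortex (22 of 26 above 0) and 0.16 in hippocampus (23 of 26). In cortex, 4 of the 26 members had an unadjusted p under 0.05 with a positive interaction, and 0 with a negative one, against 2.7% and 2.66% of all tested genes. Pdia6, a protein disulfide isomerase, had 0.19 ± 0.08 (adjusted p = 0.871), and Hsp90b1, the endoplasmic Hsp90, had 0.13 ± 0.06 (adjusted p = 0.895). Activity-dependent immediate early genes, which neurons induce after firing, lay below 0 in 23 of 24 cases with a median of -0.33, although 0 had an unadjusted p under 0.05 in edgeR's test. Nr4a2, an orphan nuclear receptor, had the smallest p of them (-0.76 ± 0.38, adjusted p = 0.927). Summed levels of the list ranged from 1512 to 4381 CPM in wild type and from 1814 to 4002 CPM in the double heterozygote, and overlapped in all genotypes. In hippocampus their median was 0.04.

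Synaptic and channel gene lists were centred near 0. Glutamate receptor and scaffold genes had a median of 0.0070 (18 of 33 above 0), with 0.13 ± 0.05 (adjusted p = 0.80) for the AMPA receptor subunit Gria3. GABA system genes had a median of 0.01 (14 of 21), with 0.47 ± 0.17 (adjusted p = 0.82) for the receptor subunit Gabrb2. Presynaptic release genes had a median of -0.02 (11 of 31), potassium channels -0.01 (12 of 33) and calcium, sodium and HCN channels -0.01 (14 of 30).

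Markers of cell types differed in direction. All 12 oligodendrocyte markers had negative interactions in cortex, with a median of -0.27, and positive ones in hippocampus, with a median of 0.20; Mog, a myelin surface protein, had -0.35 ± 0.25 (adjusted p = 0.932). Their summed level ranged from 1835 to 2943 CPM in wild type, 2025 to 4245 CPM in Slc25a1 -/+, 1701 to 4004 CPM in Mrpl40 -/+ and 1898 to 3556 CPM in the double heterozygote, with overlap of all groups. All 10 fibroblast and meningeal markers had positive interactions, with a median of 0.55, and 0.89 ± 0.67 (adjusted p = 0.934) for Igf2; their summed level lay between 15.2 and 119.4 CPM over all libraries. Interneuron markers had a median of 0.13 (12 of 15 above 0), microglia 0.01 (7 of 12) and astrocyte markers -0.0087 (6 of 12). Whether the amount of these cells in a dissection had a part in any interaction was not tested. Genes of the 22q11.2-matching region had a median of -0.0082, with 14 of 33 above 0.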

How the data were processed

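Poly(A) RNA of cortex and hippocampus was sequenced with a directional kit in paired-end reads, per the labels' protocols. Per the submitters' processing notes, FastQC, HISAT2, featureCounts and DESeq2 and the build GRCm39 were used, with no versions; no strand setting is given in the sources used here. As raw data, the authors deposited counts per gene (57180 rows, 7074 without a symbol). The deposited signal values, a table of normalized counts, equal these counts divided by 1 factor per library (largest relative range 9.85e-10).

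Counts were analysed in R 4.3.3 with edgeR 4.0.16 (TMM, filterByExpr with a minimum count of 10, robust quasi-likelihood test, Benjamini-Hochberg adjustment at 0.05). All 30 cortex libraries and 4 labelled genotypes were fitted together. A prior count of 2 was used for log2 CPM, and SE was the log2 value over the square root of F. P-values measure the spread between the sequenced animals. Tissue differences used the animal as a block. Alternatives used DESeq2 1.42.0, limma 3.58.1 (log2 of deposited values plus 1) and sva 3.50.0 (2 surrogate variables). Gene classes, positions and lengths came from GENCODE vM21 (GRCm38), where 97.3% of tested genes were found by ID. The pipeline was tested on simulated data.

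The members and gene lists were chosen with earlier results of these data known. Named genes were Malat1, Slc25a1, Mrpl40, then the smallest p among genes whose mean log2 CPM was 0 or higher, up to 30 genes, and the member of smallest p of each list; others were chosen after their values were seen.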

Additional observations from a re-analysis of the deposited data

Results flagged for a closer look

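Of 120 groups of cortex libraries (30 genes in 4 genotypes), 6 held a library far from the others of its group, and chance gives about 1 in 20. In the double heterozygote, replicate 2 was lowest for Gm44677 at 11.3 CPM, with the nearest at 12.5 CPM. Replicate 6 was highest for ENSMUSG00002076809 at 2.41 CPM, with the nearest at 1.55 CPM. In wild type, replicate 5 was highest for Gm37608 at 2.80 CPM, with the nearest at 2.02 CPM. In Slc25a1 -/+, replicate 7 was highest for Gm48583 at 15.9 CPM, with the nearest at 13.9 CPM, and replicate 5 was highest for Gm36963 at 2.47 CPM, with the nearest at 1.90 CPM. In Mrpl40 -/+, replicate 2 was lowest for Rapgef5 at 111 CPM, with the nearest at 129 CPM. No library of any genotype stood apart in this way for Malat1. Slc25a1 -/+ replicate 5 nevertheless had the highest cortex value of Malat1 (2580 CPM), of the mean over intron-located genes (0.48) and of ENSMUSG00000119584 (16447 CPM). Without this library the Malat1 interaction was -0.31 and the median of the intron-located genes -0.15, each the value nearest to 0 among the analyses leaving out 1 library.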

How the results depend on the processing

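The cortex interaction had 0 calls, and 1 with no filter on low counts, DESeq2 size factors, DESeq2, limma, length and GC content trends as offsets, or without the 6 animals. Leaving out single libraries gave 0 to 1. The Malat1 interaction, with an adjusted p of 0.0562, passed with no filter (-0.35), DESeq2 size factors (-0.35), DESeq2 (-0.35), limma (-0.35), length and GC trends (-0.36) and without the 6 animals (-0.39); leaving out libraries gave -0.38 to -0.31. The 12 calls between double heterozygote and Slc25a1 -/+ became 20 with no filter, 0 with a fold of at least 1.2, 70 in DESeq2, 0 without the 6 animals and 0 to 149 with single libraries left out. Malat1 there was no longer past the test with the fold of 1.2 (-0.25) or without the 6 animals (-0.26), and ranged from -0.28 to -0.21 with libraries left out. The 1 call against Mrpl40 -/+ became 0 with the fold, 12 in DESeq2, 0 with 2 surrogate variables, 3 without the 6 animals and 0 to 2 with libraries left out. Malat1 there was no longer past the test with the fold (-0.28) or surrogate variables (-0.25), and ranged from -0.30 to -0.26. Calls without a filter or in DESeq2 come from other sets of tested genes, and those without the 6 animals from fewer samples; the cause of the other shifts was not tested.

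Same-numbered libraries of different genotypes had a median r of 0.022 across genes over 42 pairs, against -0.0048 over 294 other pairs. Of 30 libraries, 6 correlated best with their own number. Whether same-numbered libraries shared a litter or preparation day is not given in the labels and was not tested. With the replicate number as a block, 2 genes were called for the cortex interaction (Malat1, -0.35, and Gm38384, -0.98), 4 against Mrpl40 -/+ and 4 for the hippocampus interaction. The Slc25a1 interaction changed sign without the 6 animals (0.018) and ranged from -0.29 to 0.013 with libraries left out, and that of Mrpl40 from -0.0033 to 0.067. Of 2493 values of the 64 named genes other than Malat1, 2489 kept their direction and side of the threshold; the exceptions were 3 sign changes of Slc25a1 and Mrpl40 and the call of Gm38384 with the block. The median of the intron-located genes stayed between -0.23 and -0.14. The comparisons with wild type were not recomputed under the alternatives.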
